A study of Homo sapiens with 6 samples.

Results

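The ATF4-CHOP arm of the integrated stress response was described by 10 genes, *ATF4*, *DDIT3* (which encodes CHOP), *ATF3*, *ATF5*, *CEBPB*, *CEBPG*, *NUPR1*, *TRIB3*, *PPP1R15A* and *CHAC1*, all of which were found among the 17177 gene symbols of the deposited table. The genes were chosen by symbol with their FPKM in PP and PBS libraries already known, so their differences between the treatments are given as a description, with no test. NCI-H660 is an established human cell line of neuroendocrine prostate cancer (NEPC), labelled wild type. Its cells received pyrvinium pamoate (PP), an anthelmintic drug, or PBS as the control, and 3 libraries per treatment were collected on day 3. The study used PP as an inhibitor of the RNA-binding protein ELAVL3, and the comparison asks how PP changes the transcriptome of NEPC cells. The concentration of PP used for these libraries is not given in the sources used here.

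In the integrated stress response, one of several kinases phosphorylates the translation initiation factor eIF2. General translation falls, while translation of a few mRNAs with upstream open reading frames, that of *ATF4* among them, goes up. ATF4 is a basic leucine zipper (bZIP) transcription factor that binds DNA with C/EBP partners at C/EBP-ATF response elements. Among its targets are other bZIP genes (*DDIT3*, *ATF3*, *CEBPB*) and genes that feed back on the pathway. PPP1R15A (GADD34) brings protein phosphatase 1 to eIF2 and reverses the phosphorylation, and the pseudokinase TRIB3 binds ATF4 and CHOP and restrains them. Much of the control of ATF4 itself is at translation, which mRNA levels do not show.

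The 10 genes were higher with PP than with PBS, at very different sizes. The mean FPKM with PP was 8.93-fold that with PBS for *TRIB3*, 6.94-fold for *ATF3*, 5.91-fold for *PPP1R15A*, 4.16-fold for *CEBPB* and 3.81-fold for *DDIT3*. It was 3.66-fold for *NUPR1*, 3.15-fold for *CEBPG* and 2.06-fold for *CHAC1*. At the lower end stood *ATF4* at 1.58-fold and *ATF5* at 1.36-fold. The summed FPKM of the 10 genes was 356 ± 2.42 under PBS and 1446 ± 32.5 under PP (both SD, n = 3).

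The promoter sequences of the genes were searched for the sites that these factors are known for, using the RefSeq promoter table (GRCh38.p14), which holds 250 bases before to 50 bases after each annotated start. It matched 9 of the 10 genes, with 18 start windows, and had no entry for *NUPR1*. The core of the C/EBP-ATF response element, searched as TGATGNAA on both strands, was in 3 of the 18 windows, 1 each of *CHAC1*, *CEBPG* and *ATF3*. It was in 3.62% of all 35116 windows of the table. The cAMP response element, TGACGTCA, was in the window of *PPP1R15A* and in 1.85% of all windows. The AP-1 site, TGANTCA, was in 3 windows of *DDIT3* and *ATF5* and in 7.71% of all windows. The matching windows of *DDIT3* overlap and hold the same site, which is therefore counted more than once. No match of one of these motifs overlapped a match of another. An exact match of the ER stress response element, searched as CCAAT and CCACG with 9 bases between them, was in none of the 18 windows. It was in 0.0769% of all windows. Inexact forms were not searched, and the *DDIT3* sequence below holds CCAAT, 9 bases and CCACT, which differs from this pattern in its last letter. A match describes letters only, and says nothing of binding in these cells.

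The first set shows 30 bases around the C/EBP-ATF core, in capitals, read 5′ to 3′ on the strand of the gene. In *CHAC1* (chr15:40953251-40953280, plus strand) the core lay on the opposite strand, 209 to 202 bases before the start. In *CEBPG* (chr19:33374060-33374089, plus strand) it lay 42 to 35 bases before the downstream of the annotated starts. In *ATF3* (chr1:212565205-212565234, plus strand) it lay 191 to 184 bases before the upstream of the annotated starts.

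CHAC1: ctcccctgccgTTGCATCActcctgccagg

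CEBPG: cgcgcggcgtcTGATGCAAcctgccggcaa

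ATF3: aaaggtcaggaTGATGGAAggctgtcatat

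The next set shows the 250 bases before the start of the phosphatase subunit *PPP1R15A* (chr19:48872171-48872420, plus strand), with the cAMP response element in capitals 58 to 51 bases before the start. It also shows those before the upstream of the starts of *DDIT3* (chr12:57520518-57520767, minus strand), with the AP-1 site in capitals 238 to 232 bases before the start. Both are shown whole to place each site in the promoter of a gene with a large difference.

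PPP1R15A: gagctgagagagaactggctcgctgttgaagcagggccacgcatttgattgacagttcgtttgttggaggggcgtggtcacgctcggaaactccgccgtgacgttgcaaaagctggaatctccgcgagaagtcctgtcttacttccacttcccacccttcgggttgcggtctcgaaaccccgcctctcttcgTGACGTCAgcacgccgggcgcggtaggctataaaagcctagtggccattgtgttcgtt

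DDIT3: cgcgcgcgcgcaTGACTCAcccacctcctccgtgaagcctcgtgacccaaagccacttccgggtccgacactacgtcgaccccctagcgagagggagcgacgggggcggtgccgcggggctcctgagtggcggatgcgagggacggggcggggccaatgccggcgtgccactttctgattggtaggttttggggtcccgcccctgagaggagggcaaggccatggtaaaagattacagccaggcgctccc

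For each gene the FPKM values stood in whole-number proportion, which gave back the count behind each value. The recovered totals were 29064253 to 30975177 counts in the PBS libraries and 29947143 to 32481171 in the PP libraries. The cells were checked against marker genes. Of 8 neuroendocrine markers, 7 were at 1 FPKM or more in every library and *FOXA2* was below it, and the 3 epithelial markers were all above it. Of 8 markers of immune, endothelial and fibroblast cells, *COL1A1* was above 1 FPKM in every library and *CD68* in some, and their summed level was 6.32 to 6.39 FPKM with PBS and 6.14 to 6.54 with PP. The summed neuroendocrine markers were 785 to 792 FPKM with PBS and 385 to 403 with PP. The part of this shift in the values below was not tested, and in bulk RNA fewer cells of a type and less RNA per cell cannot be told apart. No label says whether the libraries came from separate cultures. The paper's figure legend speaks of 3 independent samples for this RNA-seq, while its methods speak of duplicates in each group. Every SD and P value therefore measures the spread between these libraries only.

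*ATF4*, which heads the pathway, was at 38.3, 35.5 and 34.9 FPKM in PBS replicates 1, 2 and 3 and at 54.6, 58.2 and 58.9 FPKM in PP replicates 1, 2 and 3. The treatments did not overlap, and the lowest PP library was 1.43-fold the highest PBS library. The log2 difference (the PP mean of log2(FPKM + 1) less the PBS mean) was 0.65 (standard error 0.05). *ATF5*, its closest relative and likewise regulated at translation, was at 13.1, 14.1 and 15.4 FPKM with PBS and at 18.3, 20.2 and 19.6 FPKM with PP. Its groups lay closest together, with the lowest PP library at 1.19-fold the highest PBS library, and its log2 difference of 0.42 (standard error 0.06) was the smallest of the 10.

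*DDIT3* encodes CHOP, a C/EBP family protein that dimerises with other C/EBP and ATF proteins and is known for its part in death after prolonged ER stress. It was at 109.5, 109.2 and 108.8 FPKM in the PBS libraries and at 438, 407 and 401 FPKM in the PP libraries. By the deposited FPKM it was the most abundant of the 10 genes in both treatments, although with annotated exon lengths *ATF4* was above it with PBS. All PP libraries lay far above all PBS libraries, and the log2 difference was 1.92 (standard error 0.04). The counts behind these values were 2906 to 3087 with PBS and 11167 to 12214 with PP.

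*ATF3*, a stress-inducible bZIP factor that can repress its targets, was at 18.1, 19.7 and 19.4 FPKM with PBS and at 134.4, 134.5 and 128.2 FPKM with PP. The lowest PP library was 6.50-fold the highest PBS library. Its log2 difference of 2.73 (standard error 0.04) ranked 4th from the top among 11726 tested genes, those whose FPKM averaged 1 or more. *JDP2*, a close bZIP relative of ATF3, was at 2.68 ± 0.0988 FPKM under PBS and 4.24 ± 0.152 under PP (both SD, n = 3). *JDP2* rose by 0.51 on the log2 scale (adjusted p = 2.22e-05 from limma). *ATF3* held 87.7% ± 0.775 (SD, n = 3) of the summed FPKM of this pair with PBS and 96.9% ± 0.153 (SD, n = 3) with PP.

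*CEBPB*, a C/EBP activator of inflammatory and metabolic genes and a partner of ATF4, was at 58.1, 57.9 and 54.4 FPKM with PBS and at 245, 239 and 225 FPKM with PP. *CEBPG*, which has no activation domain of its own and pairs with ATF4 on amino acid and redox genes, was at 64.6, 62.6 and 64.3 FPKM with PBS and at 202.1, 199.8 and 201.1 FPKM with PP. Neither gene overlapped between the treatments. Their log2 differences were 2.04 (standard error 0.04) and 1.64 (standard error 0.03). *CEBPG* was the steadier, with a coefficient of variation of 0.572% between the PP libraries against 4.44% for *CEBPB*. By the deposited FPKM the order of this pair was reversed. *CEBPB* stood at 0.890 ± 0.0402 (SD, n = 3) of the FPKM of *CEBPG* with PBS and at 1.17 ± 0.0509 (SD, n = 3) with PP. With annotated exon lengths the pair lay close with PBS, at 65.7 ± 2.37 for *CEBPB* and 68.2 ± 1.19 for *CEBPG* (both SD, n = 3).

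The other C/EBP genes behaved differently from each other. *CEBPD*, an acute-phase member, was at 77.2, 78.2 and 75.4 FPKM with PBS and at 80.8, 75.6 and 73.8 FPKM with PP, and the groups overlapped. Its log2 difference was -0.0045 (95% interval -0.094 to 0.085, adjusted p = 0.925 from limma). *CEBPA*, a differentiation factor, was lower in level and rose from 4.55 ± 0.34 (SD, n = 3) to 13.5 ± 1.20 (SD, n = 3) FPKM, a log2 difference of 1.39 (adjusted p = 5.42e-08 from limma). *CEBPE* was listed at 0 in all 6 libraries. The family's summed FPKM, CHOP included, was 311 ± 3.15 under PBS and 943 ± 34.7 under PP (both SD, n = 3). Within it the share of *DDIT3* was 35.1% with PBS and 44.04% with PP, and that of *CEBPB* 18.2% and 25.05%. The share of *CEBPG* was 20.5% and 21.3%, and that of *CEBPD* 24.7% and 8.14%. *CEBPZ* carries a C/EBP name without being a bZIP protein, and rose by 0.57 on the log2 scale (adjusted p = 4e-06 from limma).

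*NUPR1*, a small stress-induced chromatin protein, was one of the 2 genes of low level. It was at 1.03, 0.912 and 0.778 FPKM with PBS and at 3.02, 3.13 and 3.79 FPKM with PP. The counts behind these values were 130 to 170 under PBS and 495 to 664 under PP. The groups did not overlap, and PP replicate 3 was the highest. *NUPR1* was the only one of the 10 with a PBS mean below 1 FPKM, so it passed the filter through its PP values. Its log2 difference of 1.18 (standard error 0.09) is understated by the pseudocount, and it was 1.76 with a pseudocount of 0.1. Its relative *NUPR2* was at 0.206 to 0.440 FPKM with PBS and 0.197 to 0.578 with PP, from 4 to 11 counts, which is too few to compare.

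**Figure D1:**
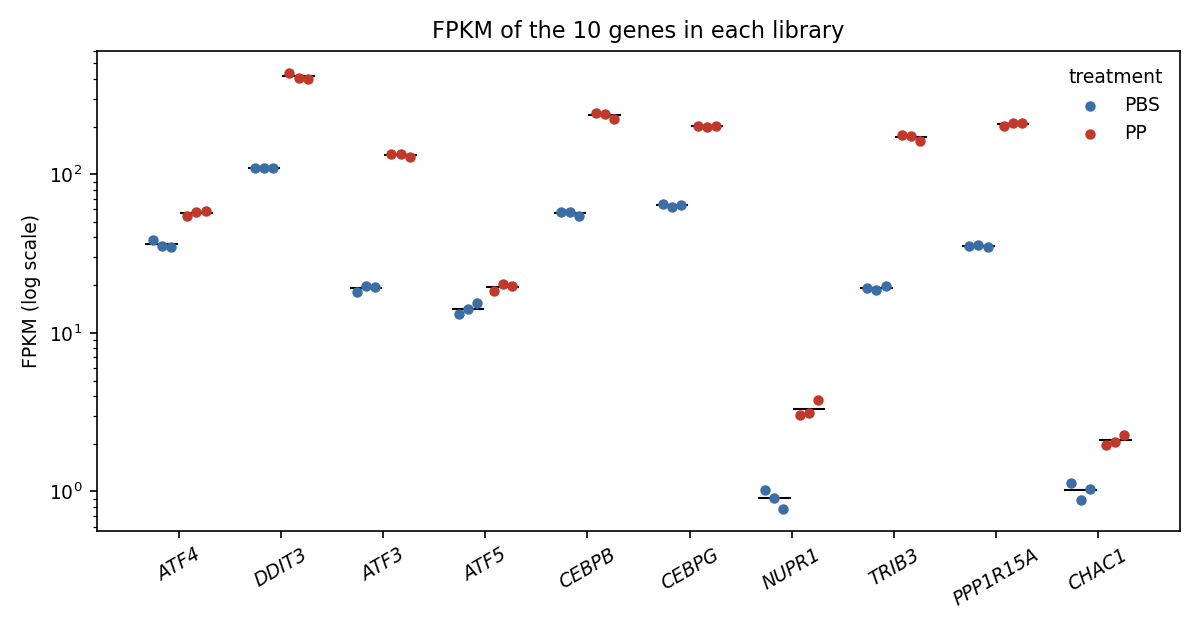
FPKM (log axis) of each of the 10 genes in the 3 PBS libraries (blue) and the 3 PP libraries (red), with a black line at the mean of each treatment. Every red point lies above every blue point of the same gene, by the widest margin for *TRIB3* (19.1 against 171 FPKM) and the narrowest for *ATF5* (14.2 against 19.4 FPKM).

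*TRIB3*, the feedback pseudokinase, was at 19.2, 18.6 and 19.7 FPKM with PBS and at 176, 175 and 162 FPKM with PP. The lowest PP library was 8.21-fold the highest PBS library, and its log2 difference was the highest of all genes tested. The tribbles family differed among its members. *TRIB1*, which serves in the degradation of C/EBP proteins, rose from 10.9 ± 0.657 (SD, n = 3) to 14.3 ± 0.884 (SD, n = 3) FPKM, a log2 difference of 0.36 (adjusted p = 0.000279 from limma). *TRIB2*, with a similar role, fell from 11.8 ± 0.595 (SD, n = 3) to 5.21 ± 0.229 (SD, n = 3) FPKM, a log2 difference of -1.04 (adjusted p = 7.67e-08 from limma). With PBS *TRIB3* held 45.8% ± 0.502 (SD, n = 3) of their summed FPKM. With PP it held 89.7% ± 0.605 (SD, n = 3).

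*PPP1R15A* encodes the inducible subunit that directs protein phosphatase 1 to eIF2, and *PPP1R15B* the constitutive one. *PPP1R15A* was at 35.1, 35.7 and 34.7 FPKM with PBS and at 203, 210.1 and 211 FPKM with PP. All PP libraries were at least 5.67-fold any PBS library, and the log2 difference was 2.53 (standard error 0.03). *PPP1R15B* was at 19.5, 21.0 and 20.3 FPKM with PBS and at 28.1, 27.6 and 29.02 FPKM with PP, and rose by 0.46 on the log2 scale (adjusted p = 4.47e-06 from limma). The FPKM of *PPP1R15A* was 1.74 ± 0.056 (SD, n = 3) times that of *PPP1R15B* with PBS and 7.37 ± 0.214 (SD, n = 3) times with PP.

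*CHAC1*, which degrades glutathione and is a target of ATF4, ATF3 and CHOP, was at 1.13, 0.889 and 1.04 FPKM with PBS and at 1.97, 2.06 and 2.27 FPKM with PP. These rest on 97 to 130 counts under PBS and 225 to 277 under PP. The groups did not overlap, with the lowest PP library at 1.75-fold the highest PBS library. At this level the log2 difference depended on the pseudocount. It was 0.62 (standard error 0.08) with a pseudocount of 1, 0.98 with 0.1 and 1.04 from limma-voom on the recovered counts. *CHAC2*, the constitutive enzyme of the same reaction, was higher in level and rose from 7.68 ± 0.742 (SD, n = 3) to 11.4 ± 0.461 (SD, n = 3) FPKM, a log2 difference of 0.52 (adjusted p = 4.94e-05 from limma). *CHAC1* held 11.8% ± 1.81 (SD, n = 3) of the summed FPKM of the pair with PBS and 15.5% ± 1.13 (SD, n = 3) with PP.

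**Figure D2:**
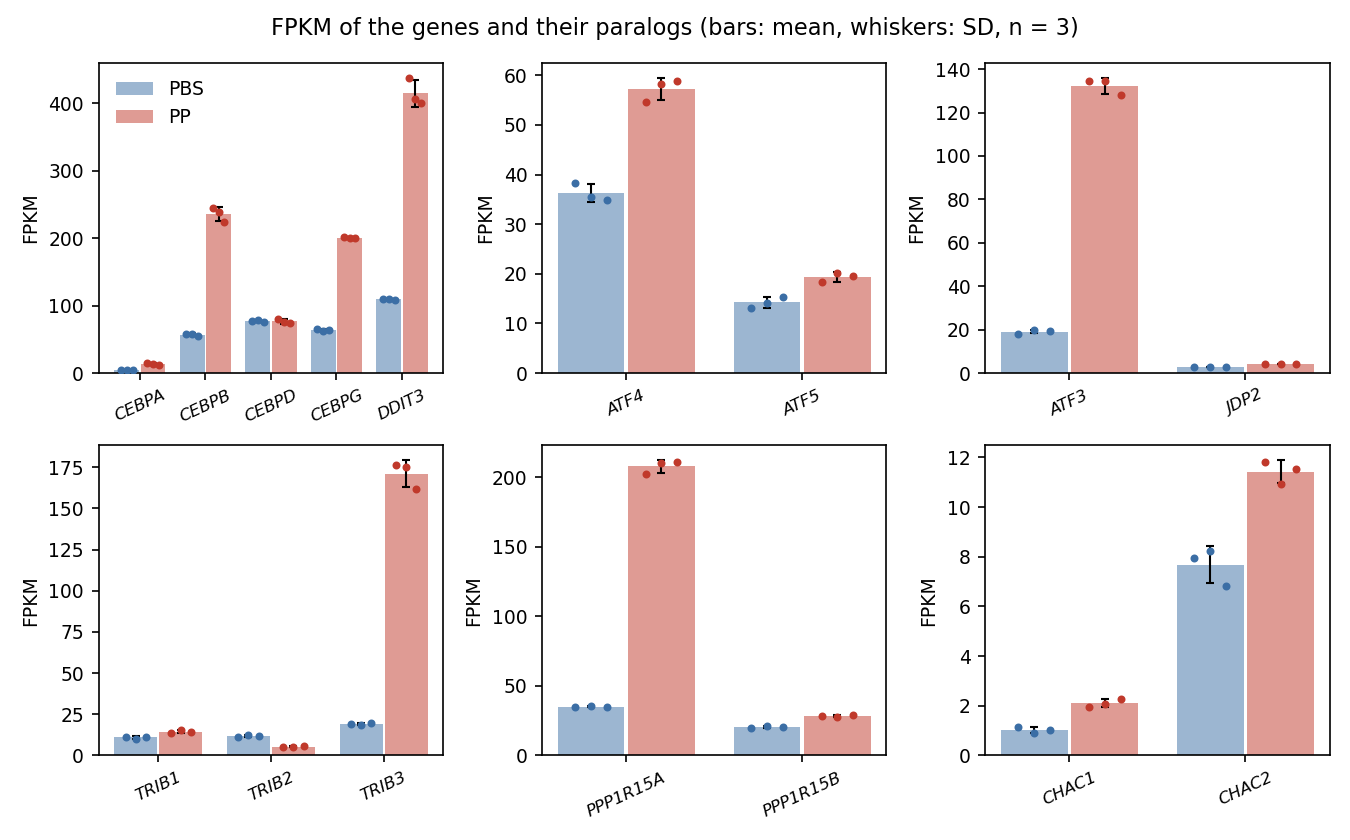
FPKM of the genes beside their paralogs, in 6 panels with their own linear axes from 0. Bars are means, whiskers the SD and points the 3 libraries of each treatment (blue PBS, red PP). *CEBPD* shows no shift (76.9 and 76.7 FPKM), *TRIB2* is lower with PP (11.8 and 5.21 FPKM), and *PPP1R15A* and *TRIB3* hold 88.0% and 89.7% of the summed FPKM of their panels with PP.

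The log2 difference was above 1 for 7 of the 10 genes, and below 1 for *ATF4*, *ATF5* and *CHAC1*. Of all genes tested, 2.24% were above 1 with an unadjusted P under 0.001 (limma). With limma-voom on recovered counts 8 of the 10 were above 1, *CHAC1* (1.04) included. In all 10 every PP library was above every PBS library, beside 39.5% of all genes tested. Since the genes were chosen on this contrast, nothing is read from these counts. The median log2 difference of the 10 was 1.78 and that of all genes tested 0.022. By rank from the highest of the 11726, 6 of the 10 were among the first 100, and *NUPR1* was at rank 174, *ATF4* at 757, *CHAC1* at 835 and *ATF5* at 1749.

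**Figure D3:**
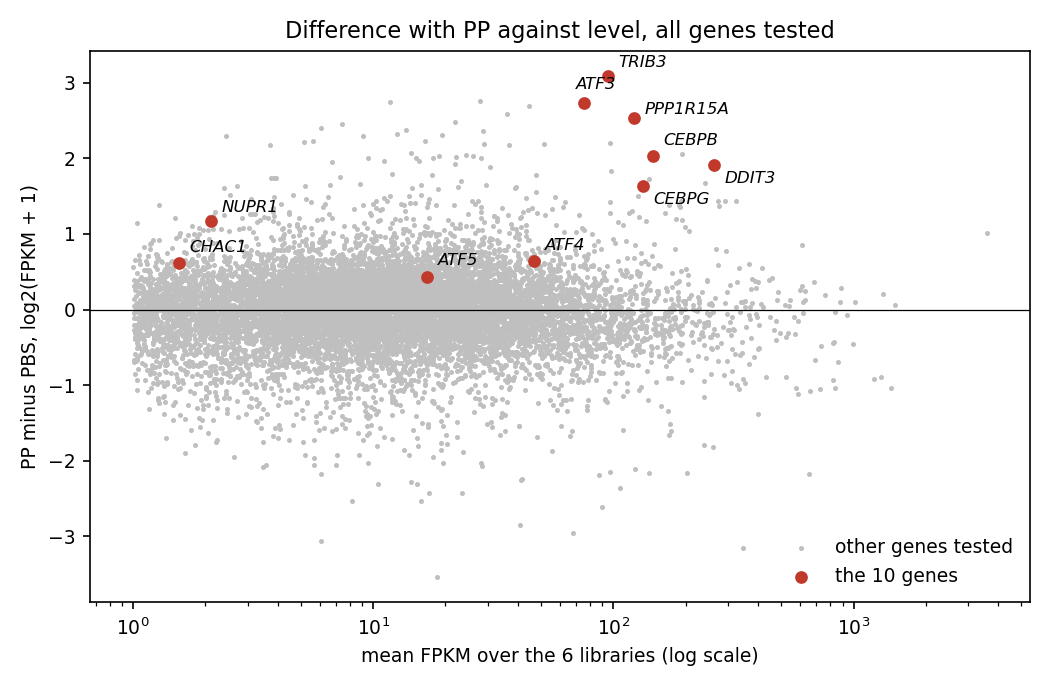
Log2 difference between PP and PBS (vertical axis) against the mean FPKM over the 6 libraries (horizontal log axis) for the 11726 genes tested (grey) and the 10 genes (red). *TRIB3*, *ATF3* and *PPP1R15A* lie at or near the top (3.09, 2.73 and 2.53), while *ATF4* (0.65), *ATF5* (0.42) and *CHAC1* (0.62) lie within the grey cloud, below its 95th percentile of 0.72.

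The spread between libraries of a treatment was small for the genes with many counts. The median residual SD was 0.058 on the log2 scale for the 10 genes and 0.065 for all genes tested. *DDIT3* varied by 0.314% (coefficient of variation) between the PBS libraries, less than the 1.82% that counting alone gives, and by 4.80% between the PP libraries, where counting gives 0.922%. *TRIB3* varied by 2.85% and 4.82% and *ATF4* by 5.01% and 3.97%, in the same order. The widest spread was that of *NUPR1*, 13.7% with PBS and 12.6% with PP, where counting alone gives 8.23% and 4.24%.

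By FPKM, *DDIT3* was followed with PBS by *CEBPG*, *CEBPB*, *ATF4*, *PPP1R15A*, *TRIB3*, *ATF3*, *ATF5*, *CHAC1* and *NUPR1*. The ranges of *ATF4* and *PPP1R15A*, of *TRIB3* and *ATF3*, and of *CHAC1* and *NUPR1* overlapped, so these neighbours were not apart beyond their spread. With PP the order was *DDIT3*, *CEBPB*, *PPP1R15A*, *CEBPG*, *TRIB3*, *ATF3*, *ATF4*, *ATF5*, *NUPR1* and *CHAC1*, and no neighbours overlapped. *ATF4* therefore stood 4th with PBS and 7th with PP. The FPKM of *DDIT3* was 3.02 ± 0.139 (SD, n = 3) times that of *ATF4* with PBS and 7.27 ± 0.65 (SD, n = 3) times with PP.

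This order, the ratios between genes and the shares within families depend on the gene length used for the FPKM. From the recovered counts, the length behind the deposited FPKM was 7782 bases for *ATF4*. All annotated exons of *ATF4* in GENCODE v44 (lifted to hg19) cover 2613 bases, and the whole gene spans 2128 bases in RefSeq (GRCh38.p14). The length was also longer than the annotated exons for *CHAC1*, 3755 against 2051 bases. It was shorter for *DDIT3* (916 against 1307 bases), *ATF3* (2892 against 3998) and *PPP1R15A* (2371 against 3433), and within 0.947 to 1.16 times the exons for the other 5 genes. Which bases the *ATF4* row covers is not given, so its counts may include reads from outside the annotated gene, and this was not tested. In GENCODE v44, 4 pseudogenes named for *ATF4* are annotated, none of them a row of the table, and reads shared with them are a further uncertainty.

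With the counts divided by the annotated exon length instead, *ATF4* was at 107.9 ± 5.41 (SD, n = 3) FPKM with PBS, the highest of the 10, against 76.5 ± 0.24 (SD, n = 3) for *DDIT3*. With PP *ATF4* was at 170.5 ± 6.77 (SD, n = 3), behind *DDIT3* at 291 ± 13.96 (SD, n = 3), *CEBPB* at 273 ± 12.1 (SD, n = 3) and *CEBPG* at 215 ± 1.23 (SD, n = 3). Differences between treatments do not depend on the length, except through the pseudocount.

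Overlapping genes are a second limit. The library kit keeps strand, per the labels, but whether the counting used it is not given. In GENCODE v44, 355 exon bases of *DDIT3* overlap *MARS1* on the opposite strand, and 565 of *ATF5* overlap *NUP62*. Also on the opposite strand, 58 of *DDIT3* overlap *MBD6* and 75 of *ATF5* overlap *IL4I1*. For *CEBPB*, 231 overlap the noncoding *CEBPB-AS1* there, which has no row in the deposited table. *MARS1*, a tRNA synthetase, was at 93.2 ± 0.853 FPKM under PBS and 150.8 ± 7.51 under PP (both SD, n = 3). *NUP62*, a nuclear pore gene, was at 28.96 ± 0.756 (SD, n = 3) and 22.5 ± 0.565 (SD, n = 3). *MARS1* shifted by 0.69 on the log2 scale against 1.92 for *DDIT3*, and *NUP62* moved the other way to *ATF5* (-0.35 against 0.42). The part of the opposite-strand genes in the values of *DDIT3*, *ATF5* and *CEBPB* was not tested. On the same strand, 909 exon bases of *NUPR1* overlap a long noncoding RNA gene, and 105 of *DDIT3* overlap another protein-coding gene. Neither gene has a row in the deposited table. Counting by strand would not separate these, and their part was not tested either.

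Upstream of these genes, a list of 23 genes of eIF2 signalling was examined. At an adjusted p under 0.05 (limma), 14 of the 23 were higher and 4 lower, beside 38.1% and 34.4% of all 11726 genes tested. The study's methods for bulk transcriptome analysis give a cutoff of P under 0.001 and a log2 difference above 1 or below -1. Their RNA-sequencing section names a P threshold of 0.05, which was not used as the cutoff here. The methods do not say whether P is adjusted, and the unadjusted P was used here. The cutoff at 0.001 was passed by 1 gene, which was higher, beside 2.24% of all genes higher and 2.93% lower. That gene was *EIF2AK3*, which encodes the ER-stress kinase PERK. It was at 11.2, 10.7 and 10.7 FPKM with PBS and at 22.8, 22.8 and 23.4 FPKM with PP (log2 difference 1.01, adjusted p = 1.24e-08 from limma), and with median-ratio scaling its difference was 0.99. The other 3 kinases had smaller differences. *EIF2AK1* (HRI, activated by heme loss and mitochondrial stress) rose by 0.12 (adjusted p = 0.0143 from limma), and *EIF2AK2* (PKR, activated by double-stranded RNA) was lower by a log2 difference of -0.20 (adjusted p = 0.00187 from limma). *EIF2AK4* (GCN2, activated by amino acid lack) had a log2 difference of -0.060 (95% interval -0.18 to 0.063, adjusted p = 0.349 from limma).

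Of the 3 eIF2 subunits, *EIF2S1* and *EIF2S2* rose by 0.49 and 0.60 on the log2 scale, and *EIF2S3* had a difference of 0.041 (adjusted p = 0.334 from limma). Of the 5 subunits of eIF2B, the exchange factor that phosphorylated eIF2 blocks, *EIF2B1* to *EIF2B4* rose, by 0.17 to 0.60, and *EIF2B5* had a difference of -0.030 (adjusted p = 0.609 from limma). The catalytic subunits that *PPP1R15A* recruits did not move together. *PPP1CA* and *PPP1CC* fell (-0.51 and -0.21), and *PPP1CB* rose (0.47). *DNAJC3*, an ER co-chaperone known as an inhibitor of eIF2 kinases, rose by 0.67, *NCK1*, an adaptor in eIF2 dephosphorylation, by 0.49, and *IMPACT*, an inhibitor of GCN2 activation, by 0.84. *OMA1*, the mitochondrial protease of the relay to HRI, rose by 0.48, and *DELE1*, the protein it cleaves, fell by 0.55. *GCN1* and *QRICH1* were not called (-0.067 and -0.046). Each gene called in this list had an adjusted p of at most 0.0143 from limma.

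Downstream, 43 of 44 listed ATF4 and CHOP targets outside the 10 genes could be tested. Of these 43, 41 were higher and 1 lower at an adjusted p under 0.05, beside 38.1% and 34.4% of all genes tested. *CTH*, counted among the 41, averaged 0.802 FPKM with PBS and 2.59 with PP, so it passed the filter through its PP values. Past the cutoff 21 were higher, beside 2.24% of all genes, and the median log2 difference was 0.99. None was lower past the cutoff with limma or limma-voom, and 42 had an unadjusted P under 0.05. The largest were *INHBE*, a secreted hormone subunit (2.70), *ALDH1L2*, a mitochondrial folate enzyme (2.23), *SESN2*, an inhibitor of mTORC1 (2.02), and *SLC6A9*, a glycine transporter (1.96). *TNFRSF10B*, the death receptor DR5 and a CHOP target, rose by 1.46, *GADD45A* by 1.44 and *SLC3A2* by 1.44. *CBS* was also past the cutoff (1.74), but its PP libraries stood apart, at 8.73, 9.45 and 2.20 FPKM. It lost the call without any one of PBS replicates 1, 2 and 3 or PP replicates 1 and 2, where its difference was 1.43 to 1.82, as well as with a filter at 0.1 FPKM or without the eBayes trend. The lower gene was *VLDLR* (-0.41), and *PSPH*, a serine synthesis enzyme, was the gene not called (-0.0061).

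The other arms of the unfolded protein response were covered by 22 tested genes of IRE1 and ATF6 signalling. Of these 22, 17 were higher and 3 lower at an adjusted p under 0.05 (limma), beside 38.1% and 34.4% of all genes tested, and 6 were past the cutoff, all higher, beside 2.24%. They were *ERN1*, which encodes IRE1 (2.23), *DNAJB9* (2.08), *XBP1* (1.83), *HSPA5* (1.68), *HYOU1* (1.30) and *SEL1L* (1.26). The 3 lower genes were *ATF6B* (-0.43), *CALR* (-0.37) and *MBTPS1* (-0.28).

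The wider bZIP family gave a comparison for the 6 bZIP genes among the 10 (*ATF4*, *DDIT3*, *ATF3*, *ATF5*, *CEBPB* and *CEBPG*). Of 47 other bZIP genes, 36 were tested. Of these, 23 were higher and 5 lower at an adjusted p under 0.05, beside 38.1% and 34.4% of all genes tested, and 6 were higher past the cutoff, beside 2.24%. Those 6 were *NFIL3*, a transcriptional repressor (2.04), *XBP1* (1.83), *CEBPA* (1.39), *CREB3L2* (1.35), *NFE2L2*, the antioxidant regulator NRF2 (1.34), and *HLF* (1.07). Without PP replicate 3 *HLF* was at 0.996. None of the 36 was lower past the cutoff with limma, and 1, *NFE2L3*, was with limma-voom on recovered counts (-1.05). *BACH2*, counted among the 23 higher, averaged 0.588 FPKM with PBS and 1.76 with PP, so it passed the filter through its PP values. The AP-1 genes *JUN*, *JUND* and *FOS* rose by 0.44, 0.58 and 0.45, and *JUNB* fell by 0.30. The median log2 difference was 0.44 for the 36 bZIP genes, 0.20 for eIF2 signalling and 0.39 for the IRE1 and ATF6 arms.

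Among the genes whose profile over the 6 libraries was nearest to the median profile of the 10 were *HERPUD1*, *XBP1*, *CLIP4* and *HSPA5*. Likeness was the Euclidean distance over the 6 libraries after each gene's PBS mean was subtracted on the log2(FPKM + 1) scale, and it was 0.055, 0.13, 0.17 and 0.18 in that order. The median profile carries the contrast that the 10 genes were chosen on. Nearness therefore mostly restates a like log2 difference (1.78, 1.83, 1.74 and 1.68), and nothing more is read from it. *CLIP4*, at 1.23 FPKM with PBS, was 5.27-fold against 3.55-fold for *HERPUD1*, so its nearness depends on the pseudocount. *HERPUD1*, an ER-associated degradation gene, was at 21.0 ± 0.361 FPKM under PBS and 74.6 ± 1.40 under PP (both SD, n = 3). Since the treatments form separate clusters of 3 libraries, no correlation across libraries was computed.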

How the data were processed

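RNA-seq libraries of NCI-H660 cells (3 with PBS, 3 with PP) were analysed from the FPKM table that the authors deposited, with 1 column per library. For these samples the submitters' processing notes name fastp, HISAT2, HTSeq and GRCh38, while the paper's methods name Bowtie, hg19, RSEM, Cufflinks and HTSeq, so the pipeline and build behind the FPKM are uncertain. Counts were recovered as the smallest whole numbers in proportion to each gene's FPKM, allowing each to lie 0.01 from a whole number. The totals may leave out reads of genes outside the table, which would make implied lengths slightly long. Totals were 29064253 to 32481171 counts, so values of genes with few counts are imprecise.

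The 11726 genes whose FPKM averaged 1 or more were fitted on log2(FPKM + 1) with limma 3.58.1 in R 4.3.3 (eBayes with an intensity trend), unpaired, with Benjamini-Hochberg adjusted P values over all genes. The cutoff of the methods for bulk transcriptome analysis was applied to the unadjusted P. A fold is a ratio of mean FPKM. Steps were tested on simulated data. Figures used Python 3.11.15 and matplotlib 3.10.9.

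The 10 genes, the 4 lists and the tests were chosen with earlier results of these data known. Named from the lists were all paralogs and eIF2 signalling genes, at most 8 genes past the cutoff per direction elsewhere, and the nearest profiles, some results of which are not reported here. Genes named beside these (those that were lower or not called, AP-1 genes, overlapping genes, markers, *NFE2L3*, *CTH* and *BACH2*) were chosen after their values were seen. The replicate numbers did not pair the libraries. Reads were not analysed here.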

Additional observations from a re-analysis of the deposited data

How the results depend on the processing

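The log2 differences of the 10 genes kept their direction under every alternative, which varied the pseudocount, the filter, the scaling, the eBayes trend, the block, the libraries and the unit tested. A filter at a mean FPKM of 5 left out *NUPR1* and *CHAC1*. Their median, 1.78, was 1.84 with a pseudocount of 0.1, 1.90 with limma-voom on recovered counts and 1.76 to 1.79 with 1 library left out. The genes lower past the cutoff numbered 531 with a pseudocount of 0.1, against 344. With limma-voom 397 were higher and 559 lower, against 263 and 344, and the cause of these shifts was not tested. In both of these fits 1 bZIP gene was lower past the cutoff, against 0. With median-ratio scaling 0 genes of eIF2 signalling were past the cutoff by limma, against 1, since *EIF2AK3* had a difference of 0.99, and 18 had an unadjusted P under 0.05 in the reported fit. That scaling moved the median of all genes from 0.022 to 0.0014.

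The deviations of same-numbered libraries from their group means correlated at -0.21, -0.014 and -0.13, so the numbers did not pair the libraries. A fit with a replicate block put 263 genes past the cutoff upward and 345 downward. At an adjusted p under 0.05 it called 4260 upward and 3878 downward, against 4464 and 4032 without the block, and the median of the 10 genes stayed at 1.78. The precision of *NUPR1* and *CHAC1* was limited by their counts.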
